A study of Mus musculus with 6 samples.

Results

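The genes described here are 30 genes of the unfolded protein response and the integrated stress response, picked by symbol from a table of 22956 genes. They fall into 4 groups by role: 14 chaperone and folding genes of the endoplasmic reticulum (ER), 4 genes of ER-associated degradation (ERAD), 4 genes for the stress sensors and XBP1, and 8 genes for ATF4 and its targets. The first 2 groups, 18 genes, are called the chaperone and degradation arm, and the last group the ATF4 arm. All 30 passed the filter on low counts, as did 16654 of all genes. RNA was measured in 3 libraries of miR-21fl/flmTmG/Myh11ERT2 mice (knockout, KO 1 to 3) and 3 libraries of WT/mTmG/ Myh11ERT2 mice (WT 1 to 3). Both genotypes are C57B6, aged 30 weeks, with 20 weeks of western diet, and both carry the mTmG colour reporter and the Myh11 driver of an inducible Cre, which acts in smooth muscle. In the knockout the miR-21 gene is flanked by recombination sites, so that Cre can remove it in cells that express the driver, while other cells of the aorta keep it. No label says whether libraries of a group are separate animals, so p-values measure the spread between these libraries, which may be technical.

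The ER folds secreted and membrane proteins. When unfolded proteins build up there, ATF6 is cut and moves to the nucleus, IRE1 (gene Ern1) splices the message of Xbp1, and PERK (gene Eif2ak3) phosphorylates the translation factor eIF2alpha. ATF6 and spliced XBP1 raise chaperones and degradation genes through the ER stress response element (ERSE) in their promoters. Phosphorylated eIF2alpha lowers translation in general but lets ATF4 be made, which with CHOP (gene Ddit3) acts on genes of amino acid supply and cell death through a composite element (CARE). Other kinases feed the same eIF2alpha step without ER stress, hence the name integrated stress response. Smooth muscle of the diseased vessel secretes matrix, and both arms have been studied in atherosclerosis. Whether XBP1 is spliced, ATF6 cut or eIF2alpha phosphorylated is not seen in counts per gene.

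The arms differed in promoter sequence. Both elements were first described on promoters of this kind, so their presence is not independent of the choice of genes. Promoters of 27 members were found in RefSeq (GRCm38.p6, 250 bases before to 50 after the start site), and Hyou1, Manf and Atf6 had no entry. The ERSE pattern, CCAAT and CCACG with 9 bases of any kind between them, searched like all patterns on both strands, lay in 8 of 16 promoters of the chaperone and degradation arm and in 0 of 8 of the ATF4 arm. It lay in 0.119% of the 32851 promoters of the whole table and in 0.166% of 10854 tested genes with an entry. Other spacings of its parts and bases outside the window were not searched, so a promoter without a match may still hold another form. The core of the CARE, TGATGNAA, lay in 5 of 8 promoters of the ATF4 arm and in 1 of 16 of the other arm, against 2.73% of tested genes. The XBP1 pattern TGACGTGG was in 0 of 27 members (1.05% of tested genes). The cyclic AMP element TGACGTCA, which shares its first letters with it, was in Ppp1r15a alone among the members (3.52% of tested genes). On its opposite strand the XBP1 pattern holds CCACG, the letters that end the ERSE. A match is only a run of letters, not a site shown to be bound. The matches show the element that was more frequent in each arm than in the other. They are printed 5′ to 3′ on the strand that carries the pattern, with its fixed letters in capitals (GRCm38.p6 coordinates). Those of the ERSE were:
Hspa5 (chr2:34772020-34772048, plus strand): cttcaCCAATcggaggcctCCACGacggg
Hsp90b1, upstream (chr10:86705633-86705661, minus strand): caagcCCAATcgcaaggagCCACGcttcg
Hsp90b1, downstream (chr10:86705528-86705556, plus strand): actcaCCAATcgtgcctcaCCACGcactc
Calr (chr8:84847070-84847098, plus strand): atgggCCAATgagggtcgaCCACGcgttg
Canx (chr11:50325795-50325823, minus strand): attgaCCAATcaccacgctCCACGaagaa
Pdia6 (chr12:17266486-17266514, plus strand): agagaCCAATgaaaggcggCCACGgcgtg
Creld2 (chr15:88819515-88819543, minus strand): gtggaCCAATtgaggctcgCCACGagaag
Dnajc3 (chr14:118937822-118937850, plus strand): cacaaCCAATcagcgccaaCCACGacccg
Syvn1 (chr19:6046527-6046555, plus strand): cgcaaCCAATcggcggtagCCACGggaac

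The Herpud1 promoter also holds ATTGG, the opposite strand of CCAAT, close to CCACG, in a spacing that was not searched. The matches of the CARE core follow, with Herpud1 as the only gene of the chaperone and degradation arm among them:
Chac1 (chr2:119351038-119351067, minus strand): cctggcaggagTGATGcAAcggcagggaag
Trib3 (chr2:152344028-152344057, plus strand): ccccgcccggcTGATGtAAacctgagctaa
Asns (chr6:7693214-7693243, minus strand): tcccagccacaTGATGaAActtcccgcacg
Nupr1 (chr7:126625562-126625591, plus strand): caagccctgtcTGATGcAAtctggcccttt
Vldlr (chr19:27216809-27216838, minus strand): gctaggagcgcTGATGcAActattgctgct
Herpud1 (chr8:94386306-94386335, minus strand): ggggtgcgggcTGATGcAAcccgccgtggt

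Hspa5 is shown with its whole window as the standard ERSE gene (chr2:34771840-34772139, plus strand, GRCm38.p6), with the ERSE letters in capitals from position -65 to -47 relative to the start site. Chac1 is shown because it had the largest difference between genotypes of all members (chr2:119350992-119351291, plus strand, GRCm38.p6). The capitals in Chac1 are the core of the CARE read on the opposite strand, from position -193 to -186 relative to the start site.
Hspa5: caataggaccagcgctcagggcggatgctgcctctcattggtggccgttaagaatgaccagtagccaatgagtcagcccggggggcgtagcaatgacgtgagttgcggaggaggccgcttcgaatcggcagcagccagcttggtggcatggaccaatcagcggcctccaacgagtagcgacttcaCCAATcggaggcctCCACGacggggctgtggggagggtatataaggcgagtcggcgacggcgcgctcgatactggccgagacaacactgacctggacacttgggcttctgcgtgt
Chac1: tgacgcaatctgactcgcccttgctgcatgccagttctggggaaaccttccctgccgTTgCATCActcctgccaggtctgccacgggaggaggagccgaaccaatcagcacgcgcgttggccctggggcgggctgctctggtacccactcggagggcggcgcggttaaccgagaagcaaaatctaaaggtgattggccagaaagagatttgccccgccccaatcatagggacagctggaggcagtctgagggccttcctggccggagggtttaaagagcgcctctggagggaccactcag

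Library totals were 37787465 to 72277179 estimated counts in the knockout and 37996254 to 154384307 in WT. Levels are given as CPM, counts scaled to library size with TMM factors between libraries. The label of smooth muscle was borne out by Myh11 (7110, 9458 and 8671 CPM in KO 1, 2 and 3, and 5427, 8244 and 7013 CPM in WT 1, 2 and 3). Markers of adventitial fibroblasts were also abundant, with a summed level over 8 genes of 6406 to 15400 CPM in the knockout and 9456 to 17440 CPM in WT. Endothelial markers summed to 60.0 to 69.8 CPM in the knockout and 60.9 to 67.2 CPM in WT over 6 genes, almost all of it Pecam1. Macrophage markers summed to 6.25 to 25.8 CPM in the knockout and 7.504 to 27.1 CPM in WT over 7 genes. Plasma and B cell markers, whose cells are rich in ER chaperones, summed to at most 0.483 CPM in the knockout and 0.290 CPM in WT over 5 genes. The sample titles name aortic smooth muscle cells, and which cells carried the fibroblast markers was not tested. Where cell types are mixed, fewer cells of a type and less RNA per cell cannot be told apart.

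No member passed the test between genotypes. With edgeR's quasi-likelihood test and Benjamini-Hochberg adjustment over 16654 genes, 0 of 30 members and 0% of all genes were called at an adjusted p under 0.05. Chac1 had the smallest of the members, 0.793. DESeq2 called 0.447% of the genes for which it gave an adjusted p and 0 members (smallest adjusted p 0.389). limma-voom called 0 members as well. At an unadjusted edgeR p under 0.05 stood 3 members, which is 10%, against 5.96% of all genes: Eif2ak3 on the higher side (3.95% of all genes) and Chac1 and Manf on the lower side (2.01%). Leaving out KO 2 reduced these 3 to 0, and leaving out WT 3 gave 1, which was then Ddit3. Over all genes the counts at that p fell as well. With all libraries there were 658 genes higher and 335 lower in the knockout. Without KO 2 there were 414 and 178, and without WT 3 there were 491 and 233. The knockout and WT libraries did not overlap for Atf6, higher in the knockout (6.48% of all genes), and for Chac1, lower in the knockout (5.6%). For 29 of 30 members the range within a genotype exceeded the difference between genotypes on the log2 scale, as for 93.6% of all genes. The 95% interval of the fold change lay within 1.5-fold either way for 20 of 30 members (59.8% of all genes), among them 14 of the 18 genes of the chaperone and degradation arm and 3 of the 8 of the ATF4 arm.

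**Figure D1:**
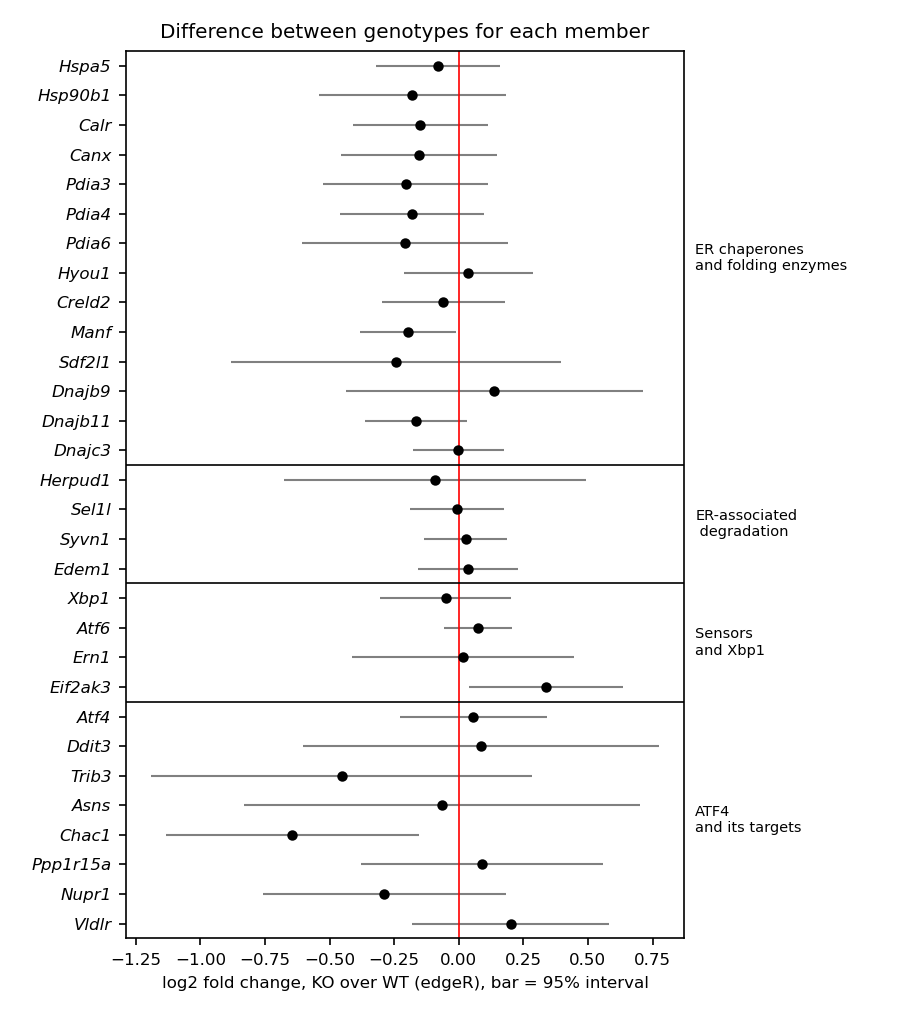
Log2 fold change, knockout over WT, of each member with its 95% interval from edgeR, grouped by role. Of 14 chaperone genes, 12 points lie below 0, and the intervals that do not reach 0 are those of Manf, Eif2ak3 and Chac1.

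Per exon length, the members covered a wide range of levels. Hspa5 was the most abundant, at 255 ± 15.3 CPM per kb of exon in the knockout and 270.0 ± 23.4 in WT (SD, n = 3 each), followed by Nupr1 at 219 ± 42.5 in the knockout and 267 ± 55.8 in WT. The difference between these 2 genes was smaller than the spread of Nupr1. Calr, Pdia3 and Hsp90b1 came next among the chaperones. Ppp1r15a, at 149.9 ± 24.3 CPM per kb in the knockout and 141 ± 32.3 in WT, lay beside Hsp90b1 (141 ± 10.8 in the knockout and 160 ± 33.0 in WT). At the low end were Chac1, Asns and Trib3, all of the ATF4 arm, each under 3 CPM per kb in both genotypes. The order of these 3 changed with genotype and their spreads overlapped, apart from Chac1 in WT, which lay above Trib3. The ATF4 arm thus held members near the top and at the bottom of the range, and the sensors Eif2ak3 and Ern1 stood just above the bottom. In each library Nupr1 and Ppp1r15a stood far above Trib3 and Chac1, their partners in that arm.

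**Figure D2:**
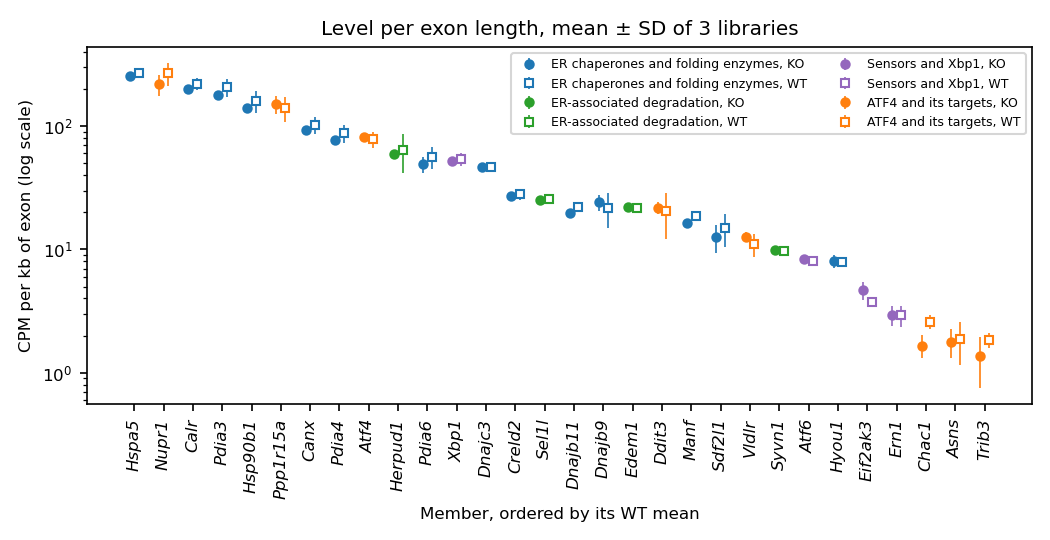
Mean level per kb of exon of each member on a log axis, with SD over 3 libraries, filled for knockout and open for WT, ordered by the WT mean. Hspa5 and Nupr1 lead, and Chac1, Asns and Trib3 stand lowest in both genotypes.

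Among the chaperones, Hspa5 (BiP), the HSP70 of the ER and the holder of the sensors in their resting state, had 1018, 1075 and 1147 CPM in KO 1, 2 and 3 and 1140, 1044 and 1242 CPM in WT 1, 2 and 3. The libraries of both genotypes interleaved, and the log2 fold change was -0.08, with a 95% interval of -0.32 to 0.16. Hsp90b1 (GRP94), the HSP90 of the ER, had 603, 519 and 582 CPM in the knockout and 792, 536 and 602 CPM in WT, a log2 fold change of -0.18 ± 0.15 (SE). WT 1 stood above all others there, and the remaining 5 libraries lay between 519 and 603 CPM. Calr and Canx, the lectin chaperones calreticulin and calnexin, had log2 fold changes of -0.15 ± 0.11 and -0.15 ± 0.13. Pdia3, Pdia4 and Pdia6, disulfide isomerases, had -0.21 ± 0.14, -0.18 ± 0.12 and -0.21 ± 0.17. For each of these 5 genes in turn, WT 1 was the highest library, at 709 CPM for Calr, where the others ran from 514 to 610 CPM. Without WT 1 the log2 fold changes shrank to -0.0027 for Hsp90b1, -0.060 for Calr, -0.018 for Canx, -0.061 for Pdia3, -0.037 for Pdia4 and -0.033 for Pdia6.

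Manf, a secreted protein that responds to ER stress, had 56.0, 54.9 and 60.8 CPM in KO 1, 2 and 3 and 69.2, 59.6 and 68.0 CPM in WT 1, 2 and 3. KO 3 lay above WT 2, and the other knockout libraries lay below all WT libraries. Its log2 fold change was -0.20 ± 0.08 (edgeR adjusted p = 0.830). The Manf locus (chr9:106838312-106891979, mm10, minus strand) overlaps Rbm15b on the same strand by 6511 bases and Dcaf1 on the other strand, so its counts are uncertain. Dnajb11, an HSP40 partner of BiP, had a log2 fold change of -0.17 ± 0.08 (-0.093 without WT 1), and Sdf2l1, a subunit of the BiP complex, -0.24 ± 0.27. Creld2, an ER stress-induced secreted protein, was at -0.06 ± 0.10 and Dnajc3 (P58IPK), a co-chaperone that also restrains PERK, at -0.0017 ± 0.07. Hyou1, the large HSP70 that exchanges the nucleotide of BiP, was at 0.04 ± 0.11.

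Dnajb9 (ERdj4), an HSP40 that directs BiP to IRE1, departed from most other chaperones in which libraries were high. It had 52.0, 69.4 and 62.7 CPM in KO 1, 2 and 3 and 37.8, 56.7 and 72.5 CPM in WT 1, 2 and 3. WT 1 was the lowest and WT 3 the highest, and the log2 fold change was 0.14, with an interval of -0.44 to 0.71. Of the 14 chaperone genes, 12 lay lower in the knockout (50.6% of all genes tested were lower), with a median log2 fold change of -0.16 against -0.0022 over all genes. Without WT 1, 10 of 14 were lower and the median was -0.035, and without KO 2, 10 were lower and the median was -0.091.

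Of the degradation genes, Herpud1, which organises the ERAD complex, had 131, 147 and 140.3 CPM in KO 1, 2 and 3 and 97.1, 149 and 199 CPM in WT 1, 2 and 3. All 3 knockout libraries lay between WT 1 and WT 2, and the log2 fold change was -0.09, with an interval of -0.68 to 0.49. Sel1l, the adaptor of the HRD1 ubiquitin ligase, Syvn1, which encodes HRD1, and Edem1, a lectin that delivers misfolded glycoproteins, had log2 fold changes of -0.01 ± 0.08, 0.03 ± 0.07 and 0.04 ± 0.08 (SE). Their 95% intervals stayed between -0.19 and 0.23. Syvn1 overlaps Mrpl49 on the other strand by 83 bases.

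The sensors included the member with the highest fold change. Eif2ak3 (PERK; chr6:70844515-70905245, mm10, plus strand) had 30.9, 31.3 and 22.9 CPM in KO 1, 2 and 3 and 22.4, 21.4 and 23.3 CPM in WT 1, 2 and 3. KO 1 and KO 2 stood above all WT libraries, and KO 3 lay within them. The log2 fold change was 0.34, with an interval of 0.04 to 0.64 (edgeR adjusted p = 0.830). It was 0.47 without KO 3, 0.26 without KO 2 and 0.27 without KO 1, and leaving out any library except KO 3 took it past an unadjusted p of 0.05. Of the other eIF2alpha kinases, Eif2ak4 (GCN2), which senses a lack of amino acids, had 17.5 ± 0.979 CPM in the knockout and 15.3 ± 0.577 CPM in WT (SD, n = 3 each), or 0.19 on the log2 scale (edgeR adjusted p = 0.830).

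Atf6 (chr1:170704674-170867771, mm10, minus strand) had 77.8, 74.7 and 80.9 CPM in KO 1, 2 and 3 and 74.4, 74.5 and 72.8 CPM in WT 1, 2 and 3. The lowest knockout library, KO 2, lay just above the highest WT library, WT 2. The log2 fold change was 0.07, with an interval of -0.06 to 0.21. Ern1 (IRE1) was at 0.01 ± 0.18, with its highest values in KO 1 (29.4 CPM) and WT 1 (28.1 CPM). Xbp1 had 159, 185 and 167 CPM in the knockout and 153, 181 and 195 CPM in WT, a log2 fold change of -0.05 ± 0.11, and these counts do not separate the spliced form.

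In the ATF4 arm, Chac1 (chr2:119351229-119354381, mm10, plus strand), a glutathione-degrading enzyme and an ATF4 target, had 2.23, 2.59 and 3.35 CPM in KO 1, 2 and 3 and 4.35, 3.63 and 4.80 CPM in WT 1, 2 and 3. The highest knockout library, KO 3, lay below the lowest WT library, WT 2. The log2 fold change was -0.64 ± 0.21 (SE), a ratio of 0.640 with an interval of 0.456 to 0.898 (edgeR adjusted p = 0.793). Chac1 rests on 83, 113 and 241 estimated counts in the knockout and 165, 148 and 739 in WT. Across 13 alternatives its log2 fold change stayed between -0.83 and -0.53, and its unadjusted p missed 0.05 without KO 2 and without WT 3.

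Trib3, a pseudokinase that restrains ATF4, is likewise a low gene, at 4.32, 2.40 and 1.92 CPM in KO 1, 2 and 3 and 4.38, 3.36 and 4.0 CPM in WT 1, 2 and 3. KO 1 lay with WT and the other knockout libraries lay below. Its log2 fold change was -0.45 ± 0.31, and it was -0.87 without KO 1, -0.34 without KO 2 and -0.22 without KO 3. Nupr1, a stress-induced chromatin protein, had 637, 430.4 and 582 CPM in the knockout and 664, 535 and 815 CPM in WT, a log2 fold change of -0.29 ± 0.20, which was -0.13 without WT 3 and -0.14 without KO 2. Asns, asparagine synthetase, had 6.11, 3.55 and 4.96 CPM in the knockout and 7.12, 3.22 and 4.97 CPM in WT, a log2 fold change of -0.07 ± 0.32. These 4 targets were the members of the ATF4 arm below 0.

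The other 4 genes of the arm were above 0. Atf4 had 175, 199 and 199 CPM in KO 1, 2 and 3 and 160, 176 and 215 CPM in WT 1, 2 and 3, a log2 fold change of 0.06 ± 0.12. ATF4 is controlled chiefly in translation, so its message does not show its activity. Ddit3 (CHOP) had 32.6, 37.9 and 41.05 CPM in the knockout and 22.5, 31.8 and 50.3 CPM in WT, a log2 fold change of 0.09 with an interval of -0.60 to 0.77. WT 1 and WT 3 were the lowest and highest of the 6 libraries, with the knockout between them. Ddit3 overlaps Mars on the other strand by 68 bases. Ppp1r15a (GADD34), the phosphatase subunit that reverses eIF2alpha phosphorylation, was at 0.09 ± 0.20, and Vldlr, a lipoprotein receptor listed as an ATF4 target, at 0.20 ± 0.16. Vldlr was lowest in WT 1 (84.8 CPM, the others 113.9 to 137 CPM), and its log2 fold change without WT 1 was 0.040.

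**Figure D3:**
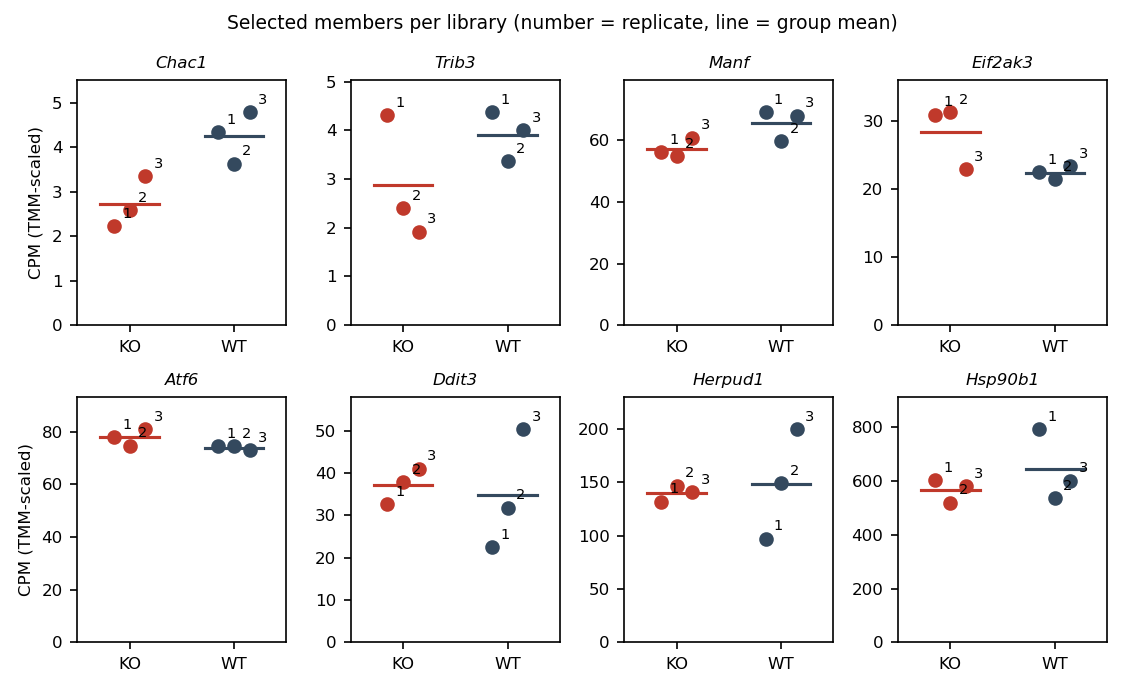
Level in CPM of 8 members in each library, numbered by replicate, with the group mean as a line and each axis starting at 0. Knockout and WT do not overlap for Chac1 and Atf6, while WT 1 and WT 3 stand at opposite ends for Ddit3 and Herpud1.

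Set side by side, the arms differed less between genotypes than between WT libraries. The median log2 fold change was -0.0042 over the 8 genes of the ATF4 arm and -0.12 over the 18 of the chaperone and degradation arm, a difference of 0.12. By the mean over members the values were -0.13 for the ATF4 arm and -0.09 for the other, and the difference turned to -0.03. Without WT 1 the medians were -0.11 for the ATF4 arm and -0.03 for the other, and the difference was -0.09. The ATF4 arm was split evenly, with 4 genes on each side, while 14 of 18 genes of the chaperone and degradation arm were below 0 (50.6% of all genes). As mean log2 CPM relative to each gene's mean, the ATF4 arm stood at -0.027, -0.133 and -0.014 in KO 1, 2 and 3 and at -0.031, -0.082 and 0.288 in WT 1, 2 and 3. The chaperone and degradation arm stood at -0.008, -0.121 and 0.003 in the knockout and at 0.141, -0.068 and 0.053 in WT. In both arms KO 2 lay below all WT libraries and the other knockout libraries within their range. The arm difference per library, ATF4 arm minus the other, was -0.019, -0.012 and -0.017 in the knockout and -0.172, -0.014 and 0.235 in WT, so that the widest split between the arms was among WT libraries. These are descriptions with no test.

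**Figure D4:**
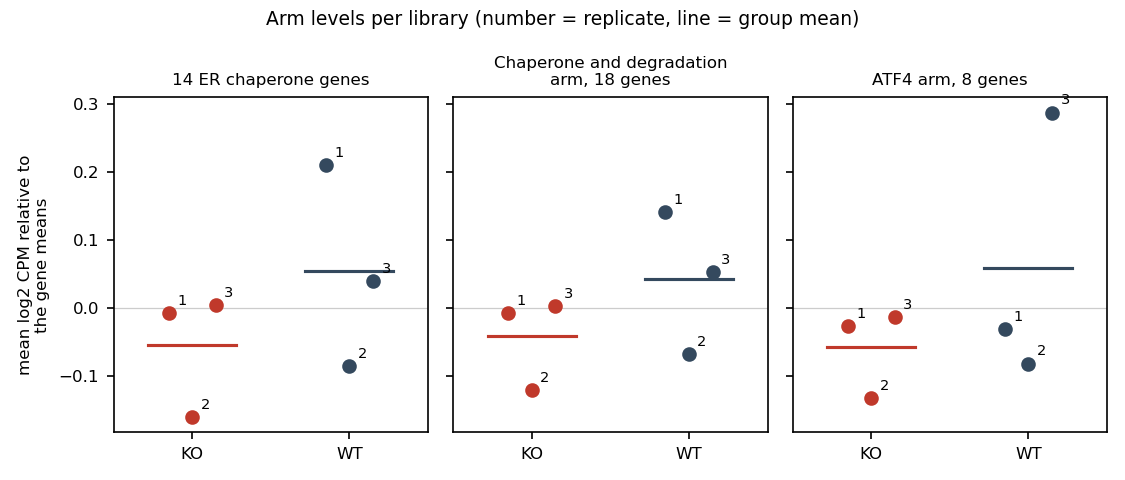
Mean log2 CPM relative to the gene means for the 14 chaperone genes, the 18 genes of the chaperone and degradation arm and the 8 genes of the ATF4 arm, 1 point per library and a line for each group mean. WT 1 is the highest library for the chaperones (0.211) and WT 3 for the ATF4 arm (0.288).

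By the median over members, the spread was wider among WT than among knockout libraries. WT 1 was the highest of the 6 libraries for 14 of 30 members (22.7% of all genes), 11 of them chaperones. It was the lowest for 8 of 30 members, which is near the share of all genes (23.5%). These 8 were Dnajb9, Herpud1, Syvn1, Xbp1, Atf4, Ddit3, Ppp1r15a and Vldlr. WT 3 was the highest for 9 members (13.8% of all genes), and 6 of those 9 were among the 8 that were lowest in WT 1. KO 2 was the lowest for 10 of 14 chaperone genes (20.6% of all genes) and the highest for 3 members (19.8% of all genes). Dnajb9, Herpud1 and Xbp1, genes of the ATF6 and XBP1 side, were thus lowest in WT 1 and highest in WT 3 like Ddit3 and Ppp1r15a, where Hsp90b1 and Pdia6 were highest in WT 1. On the log2 scale, the median span of the 30 members was 0.23 among knockout and 0.41 among WT libraries. Over all genes it was 0.28 and 0.31. Ddit3 spanned 0.33 among knockout libraries and 1.16 among WT libraries, and Herpud1 spanned 0.16 among knockout and 1.04 among WT libraries. Some members went the other way, such as Trib3 (1.16 among knockout and 0.38 among WT libraries) and Eif2ak3 (0.45 and 0.12).

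**Figure D5:**
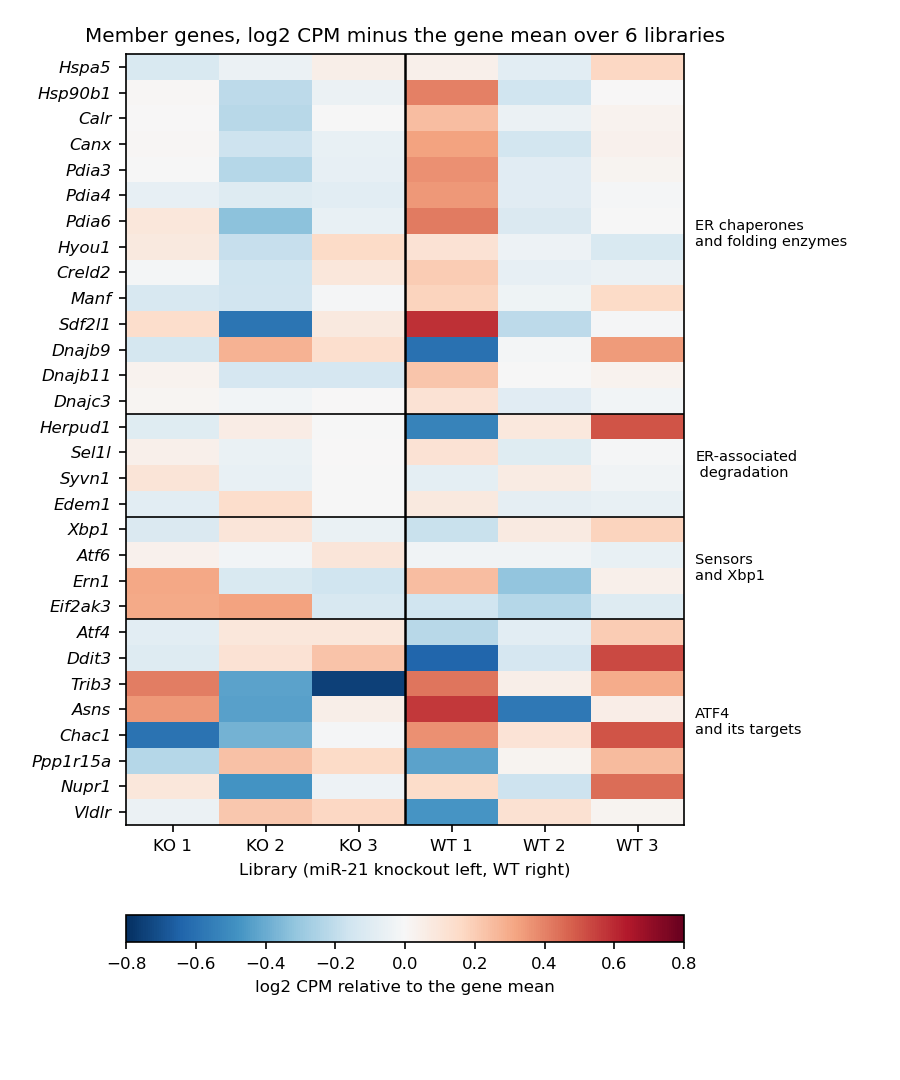
Log2 CPM of each member in each library relative to the gene's mean over all 6, knockout on the left and WT on the right, red for higher and blue for lower. WT 1 is red for most chaperones and blue for Dnajb9, Herpud1, Ddit3, Ppp1r15a and Vldlr, and WT 3 is red for Herpud1, Ddit3, Chac1 and Nupr1.

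Other genes were high or low in the same libraries. Immediate early and handling genes, 17 in number, stood at -0.048, 0.285 and 0.090 in KO 1, 2 and 3 and at -0.339, -0.169 and 0.181 in WT 1, 2 and 3, as mean log2 CPM relative to the gene means, lowest in WT 1 like Ddit3. Their summed level was 17940 to 25770 CPM in the knockout and 15610 to 21300 CPM in WT. The adventitial fibroblast markers stood at 0.605, -0.813 and -0.484 in the knockout and 0.841, -0.497 and 0.347 in WT, highest in WT 1 and lowest in KO 2, as most chaperones were, but also high in KO 1, where the chaperones were near their mean. Among these markers Lum had 3130, 706 and 1099 CPM in KO 1, 2 and 3 and 4108, 1673 and 3577 CPM in WT 1, 2 and 3. Smooth muscle markers were lowest in KO 1 (-0.200) and WT 1 (-0.246). By the same measure the mean of the 4 tested macrophage markers was high in KO 1 (1.07) and WT 1 (1.09). Cd68, of the macrophage list, was not high in WT 1, with 2.66, 2.73 and 3.0 CPM in WT 1, 2 and 3. In KO 1, 2 and 3 it had 3.46, 3.41 and 2.31 CPM. The endothelial markers were also high in KO 1 (0.859) and WT 1 (1.31), through genes of low level such as Cdh5, at most 0.580 CPM in any library. Pecam1, the main endothelial marker, went another way, with its lowest level in KO 1 (52.9 CPM, the other libraries 58.2 to 63.6 CPM). The part of cell makeup or handling in the member values was not tested.

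The rest of the pathway showed as little difference. In the edgeR test 0 genes of any of these lists had an adjusted p under 0.05, and the counts at an unadjusted p under 0.05 are given with each. Of 26 other genes of ER folding and transport, 21 were lower in the knockout (50.6% of all genes), 1 of them at an unadjusted p under 0.05 (2.01% of all genes). That was Srp54a, of the signal recognition particle, with a log2 fold change of -0.30 ± 0.11 (SE). The next were Mydgf (-0.19 ± 0.10) and the chaperone Hspa13 (-0.17 ± 0.09). Of 13 other degradation genes, 11 were lower (50.6% of all genes) and 1 at an unadjusted p under 0.05 (2.01% of all genes). Ufm1, a ubiquitin-like modifier, was that 1 gene (-0.16 ± 0.06), with the lectin Os9 at -0.36 ± 0.15 and Edem3 at 0.10 ± 0.08. As mean log2 CPM relative to the gene means, WT 1 stood apart in both lists (0.101 for folding and 0.103 for degradation), where the other libraries ran from -0.068 in KO 2 to 0.033 in WT 3 and from -0.063 in KO 2 and WT 2 to 0.047 in WT 3. Of 10 other regulators of the unfolded protein response, 3 were higher (49.4% of all genes) and 0 at that p (5.96% of all genes). Creb3l2, an ER-bound transcription factor of secretion, had 271 ± 22.8 CPM in the knockout and 235 ± 25.4 CPM in WT (SD, n = 3 each), and Crebrf and Creb3 were at 0.11 ± 0.08 and -0.09 ± 0.06 (log2, SE).

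Of 19 other tested regulators of the integrated stress response, 10 were higher (49.4% of all genes) and 2 at an unadjusted p under 0.05 (3.95% of all genes), Eif2ak4 and the death receptor gene Tnfrsf10b (0.22 ± 0.09). The ATF4 target Atf3, also an immediate early gene, was at 0.54 ± 0.31, and the stress cytokine Gdf15 at -0.18 ± 0.25. Genes of amino acid supply were mostly lower, 12 of 15, with 2 at an unadjusted p under 0.05 (2.01% of all genes). Their mean log2 CPM relative to the gene means was -0.076, -0.040 and -0.074 in KO 1, 2 and 3 and 0.070, -0.084 and 0.204 in WT 1, 2 and 3, so that WT 2 was the lowest library. Their summed level was 1183 to 1377 CPM in the knockout and 1063 to 1268 CPM in WT. Phgdh, the entry to serine synthesis, had 6.93 ± 0.0545 CPM in the knockout and 9.68 ± 1.52 CPM in WT (SD, n = 3 each), or -0.49 ± 0.14 on the log2 scale (SE). Mthfd2, of mitochondrial folate metabolism, was at -0.35 ± 0.15, and Psph, a serine synthesis phosphatase, at -0.24 ± 0.12. Of 15 tRNA synthetase genes, 12 were lower and 0 at that p, with Aars at -0.16 ± 0.07, Sars at -0.14 ± 0.07 and Yars at -0.13 ± 0.07. Over all genes 50.6% were lower and the median was -0.0022, against -0.09 for the amino acid genes and -0.07 for the synthetases.

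Cytosolic heat shock genes lay on the other side. Of 17, 15 were higher in the knockout (49.4% of all genes), with a median log2 fold change of 0.08 and 0 at an unadjusted p under 0.05. Hsph1 was at 0.31 ± 0.16, Hspa8 at 0.21 ± 0.13 and their activator Hsf1 at 0.12 ± 0.08 (SE). As a list they stood at -0.126, 0.161 and 0.094 in KO 1, 2 and 3 and at -0.088, -0.086 and 0.046 in WT 1, 2 and 3, with KO 1 the lowest and KO 2 the highest. Of the 17 immediate early genes 16 were higher (49.4% of all genes). Btg2, at 0.27 ± 0.10, was the 1 gene at an unadjusted p under 0.05 (3.95% of all genes), and Fosb was at 0.46 ± 0.27.

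The share of members with a site for miR-21, the microRNA targeted in the knockout, was near that of all tested genes. The mature strand is shown with its seed, bases 2 to 8, in capitals, as the sequence whose match was searched.
mmu-miR-21a-5p (chr11:86584120-86584141, minus strand, GRCm38.p6): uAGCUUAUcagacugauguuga
The match ATAAGCT lay in the 3′ untranslated region of 3 of 30 members, which is 10%, against 7.28% of 13080 tested genes with such a region in GENCODE M21. They are printed with the match in capitals, and none is known here to be bound.
Canx: tgctgaaaattATAAGCTctgcatagtgt
Sel1l: gcttaaagagcATAAGCTgacgtcatgaa
Vldlr: ttccaaaccaaATAAGCTtgctgccatgg
The log2 fold changes of these 3 were -0.15 ± 0.13 for Canx, -0.01 ± 0.08 for Sel1l and 0.20 ± 0.16 for Vldlr, and without WT 1 that of Canx was -0.018 and that of Vldlr 0.040. Eif2ak3 and Chac1 held 0 sites.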

How the data were processed

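The authors deposited 1 table of expected counts per gene, not normalized, with 1 column per library. Processing notes of the submitters name mm10, STAR 2.6 and DESeq2 without saying what each did. The counting tool, its strand setting and the gene models are not stated. Columns were matched to samples by the code in their names, and 0 columns of values had no sample. For the comparison, the expected counts were rounded, genes were kept by filterByExpr of edgeR 4.0.16 (R 4.3.3), and TMM factors were applied. Knockout was set against WT by the two-sided quasi-likelihood F test in its robust form, with Benjamini-Hochberg adjustment over all genes tested. Standard errors follow from the F statistic. Alternatives included DESeq2 1.42.0 and limma 3.58.1. Libraries of a genotype varied more than counting error allows (chi-square per gene of 31.2 to 109). Scores used log2 CPM with a prior count of 2. Exon lengths and 3′ untranslated regions came from GENCODE M21 (GRCm38, the assembly of mm10). Promoters and the microRNA came from RefSeq. Motifs and figures used Python 3.11.15. All members are named, with up to 3 genes of smallest p from each other list, and Atf3, Eif2ak4 and Gdf15. The members and lists were chosen with earlier results of these data known.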

Additional observations from a re-analysis of the deposited data

How the results depend on the processing

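No member had an adjusted p under 0.05 in any of the 13 alternative fits. Over all genes the count called was 0 with edgeR, 73 with DESeq2, 1 with the replicate number as a block and 0 to 1 when leaving out single libraries (1 without KO 1). Same-numbered libraries deviated together for numbers 1 and 2 (correlations 0.289 and 0.317) but not 3 (-0.0263), so the numbers were not taken as pairs. With the replicate block 8 members stood at an unadjusted p under 0.05, against 3. Over all 16654 genes the counts at that p rose too. They were 1189 higher and 918 lower in the knockout with the block, against 658 and 335 without it. Leaving out single libraries put the median of the ATF4 arm between -0.15 and 0.05, that of the chaperone and degradation arm between -0.18 and -0.025 (the upper end without WT 1), and the arm difference between -0.087 (without WT 1) and 0.19. By the mean over members the arm difference was -0.033. The sign of 15 members held throughout, and 28 of 390 values of members turned: with limma-voom Creld2 (0.00092), Dnajc3 (0.0080), Sel1l (0.0020) and Ern1 (-0.062), and with the replicate block Dnajc3 (0.00073). Leaving out single libraries turned these signs within the ranges -0.034 to 0.13 (Hyou1), -0.12 to 0.032 (Creld2), -0.40 to 0.020 (Sdf2l1), -0.076 to 0.38 (Dnajb9), -0.050 to 0.057 (Dnajc3), -0.32 to 0.18 (Herpud1), -0.058 to 0.052 (Sel1l), -0.021 to 0.063 (Syvn1), -0.029 to 0.085 (Edem1), -0.14 to 0.025 (Xbp1), -0.15 to 0.15 (Ern1), -0.034 to 0.18 (Atf4), -0.15 to 0.45 (Ddit3), -0.31 to 0.24 (Asns) and -0.075 to 0.25 (Ppp1r15a). The cause of these sign changes was not tested. Trib3 and Asns, which with Chac1 have the lowest levels of the members, have the widest intervals of them.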
